A study of Mus musculus with 16 samples.

Results

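The imprinted genes *Nnat*, *Meg3*, *Rian*, *Mirg*, *Peg3*, *Ndn*, *Snrpn* and *Impact*, all expressed in the brain, were followed in frontal cortex and cerebellum of mice with and without *Upf3b*. They are 8 of the 55266 genes whose transcripts were counted. The set was drawn up by name with results of these libraries known, and was chosen by, among other things, the lower CPM (counts per 1000000 counts of the library) of *Nnat* in Upf3b-KO frontal cortex. The frontal cortex genotype values of the 8 genes, and the regional difference of *Nnat*, are therefore given as a description with no test. Frontal cortex (FC) and cerebellum (Cere) were taken from 4 adult *Upf3b*-null mice (Upf3b-KO) and 4 control littermates (Ctrl). The protein made from *Upf3b* takes part in nonsense-mediated RNA decay (NMD), which removes RNAs whose translation stops early, and the study looked for brain RNAs that depend on it. The 16 libraries formed 4 groups of 4, named Ctrl FC, Upf3b-KO FC, Ctrl Cere and Upf3b-KO Cere. No treatment, sex or exact age was stated, and the labels do not tie a library to an animal or say whether tissue was pooled, so p-values measure only the spread between these libraries, which may be technical.

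An imprinted gene is transcribed mainly from the copy inherited from one parent, which is set by DNA methylation laid down in the egg or sperm. *Nnat*, *Peg3*, *Ndn*, *Snrpn* and *Impact* are expressed from the paternal copy in the mouse, whereas *Meg3*, *Rian* and *Mirg* are maternally expressed noncoding RNAs of the Dlk1-Dio3 cluster. Imprinted genes are abundant in neurons and are known for roles in growth, feeding and maternal behaviour. The counts do not separate the parental copies, so the values below are sums over both.

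*Nnat* encodes neuronatin, a small membrane protein of the endoplasmic reticulum, and lies at chr2:157401879-157404573 (GRCm39, plus strand). It has a major form with 3 exons, Nnat-202, and one with 2 exons, Nnat-205, from which the middle exon is missing. That exon of 81 bases tells the forms apart and is printed below in capitals, between 10 intron bases on each side, at chr2:157403123-157403223 (GRCm39, plus strand).
Nnat exon 2: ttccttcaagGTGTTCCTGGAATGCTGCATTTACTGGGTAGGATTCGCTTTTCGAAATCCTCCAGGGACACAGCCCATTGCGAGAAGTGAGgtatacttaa
In the annotation, Nnat-208 holds the first 76 of these bases and Nnat-210 the first 27.

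Start-site windows of 300 bases, from 250 before to 50 after the start, were read from the RefSeq promoter table (GRCm38.p6). The table held 11 windows for 7 of the genes, and none was matched for *Impact*. The *Nnat* window, chr2:157559828-157560127 on the plus strand, is shown whole because the genotype difference of *Nnat* in frontal cortex was the largest of the set. Its capitals mark CGCATGCG, the palindrome to which NRF1-type factors are known to bind, whose first base lies 25 bases before the start.
Nnat promoter: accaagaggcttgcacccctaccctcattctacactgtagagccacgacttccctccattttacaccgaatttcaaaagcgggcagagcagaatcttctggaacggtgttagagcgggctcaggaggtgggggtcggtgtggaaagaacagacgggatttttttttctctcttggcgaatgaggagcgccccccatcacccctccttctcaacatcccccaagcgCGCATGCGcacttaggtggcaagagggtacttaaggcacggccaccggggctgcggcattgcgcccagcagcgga
The same 8 letters were found once in the *Ndn* window and once in each of the 4 *Snrpn* windows. In the *Snrpn* windows other than the last, the bases just before these letters were nearly the same, so these are not separate matches. Stretches of 60 bases are shown for *Ndn* (chr7:62348228-62348287, plus strand) and for the first and the last *Snrpn* window (chr7:60450207-60450266 and chr7:60005150-60005209, minus strand).
Ndn: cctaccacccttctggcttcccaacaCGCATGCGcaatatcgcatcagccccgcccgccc
Snrpn first: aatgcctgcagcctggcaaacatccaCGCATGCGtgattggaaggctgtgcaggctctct
Snrpn last: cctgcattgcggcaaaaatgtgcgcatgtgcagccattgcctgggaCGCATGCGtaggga
The letters TGACGTCA, the full palindrome of the cyclic AMP response element, were found in one *Meg3* window (chr12:109540913-109540972, plus strand) and in the *Peg3* window (chr7:6730564-6730623, minus strand).
Meg3: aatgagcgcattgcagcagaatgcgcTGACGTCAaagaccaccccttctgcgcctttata
Peg3: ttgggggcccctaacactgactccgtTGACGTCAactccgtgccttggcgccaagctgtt
Each palindrome reads the same on both strands, and they do not overlap one another. CGCATGCG stands in 615 of 32851 windows of the table (1.87%) and TGACGTCA in 588 (1.79%). The windows of *Rian* and *Mirg* and the other *Meg3* window held neither. The letters were chosen after these windows had been read, so the matches are a description of the sequence only.

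*Meg3*, *Rian* and *Mirg* are host RNAs for small RNAs of the cluster. One mature miRNA from each host is shown, with the seed (bases 2 to 8) in capitals, from the RefSeq miRNA table. The genes lie at chr12:109506877-109538165, chr12:109570242-109628150 and chr12:109696198-109715898 (GRCm39, plus strand).
miR-770-5p, in Meg3: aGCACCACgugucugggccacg
miR-370-3p, in Rian: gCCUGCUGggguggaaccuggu
miR-410-3p, in Mirg: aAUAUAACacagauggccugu
Their seeds differ. The annotation places 2 miRNA genes inside *Meg3*, 4 miRNA and 13 snoRNA genes inside *Rian*, and 14 miRNA genes inside *Mirg*. These 33 small features together held 1 count over the 16 libraries, so these libraries report on the long host RNAs and not on the small RNAs.

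Libraries held 27660078 to 35238677 counts, except Upf3b-KO Cere 1, which held 64981. In that library 3 counts amount to 46.2 CPM, and it was left out of the values below, so Upf3b-KO Cere has n = 3. *Upf3b* itself was at 14.8 ± 0.637 CPM (SD, n = 4) in Ctrl FC and 0.559 ± 0.257 (n = 4) in Upf3b-KO FC. It was at 22.7 ± 1.23 (n = 4) in Ctrl Cere and 0.737 ± 0.198 (n = 3) in Upf3b-KO Cere. The cerebellar markers summed to 4578 to 4623 CPM in Ctrl Cere libraries against 60.7 to 64.7 in Ctrl FC, and the frontal cortex markers to 1726 to 1788 CPM in Ctrl FC against 483 to 503 in Ctrl Cere, so the Ctrl libraries carried the markers of their labelled tissue.

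Lists of region and cell type markers differed between the genotypes in both regions. The 8 choroid plexus markers summed to 21.8 to 23.3 CPM in Ctrl FC and to 2224 to 2281 in Upf3b-KO FC, with *Ttr*, the transthyretin gene, at 7.94 and 1848. All 8 were more than 2-fold higher in Upf3b-KO FC. The 9 striatal markers summed to 163 to 176 CPM in Ctrl FC and to 789 to 802 in Upf3b-KO FC, and all 9 were more than 2-fold higher. The 8 frontal cortex markers summed to 1615 to 1630 CPM in Upf3b-KO FC, a little under the Ctrl FC libraries. In cerebellum, the choroid plexus sum was 31.6 to 35.9 CPM in Ctrl and 1404 to 1429 in Upf3b-KO, with 7 of 8 markers more than 2-fold higher. The 8 markers of brainstem and cerebellar nuclei summed to 75.9 to 78.6 CPM in Ctrl Cere and to 591 to 599 in Upf3b-KO Cere, and all 8 were more than 2-fold higher. The 9 cerebellar markers were lower in every Upf3b-KO Cere library than in any Ctrl library, with sums of 2482 to 2495 CPM against 4578 to 4623. The 10 hypothalamic markers summed to 3.96 to 4.94 CPM in Ctrl FC, 7.38 to 8.95 in Upf3b-KO FC, 6.54 to 7.73 in Ctrl Cere and 16.3 to 16.5 in Upf3b-KO Cere. *Slc6a5*, of the list of brainstem and cerebellar nuclei, was at 0 in Upf3b-KO FC. In Ctrl Cere, *Chat*, *Gpr6*, *Hcrt* and *Avp* were at 0. The part of these differences in the results that follow was not tested. In bulk tissue, fewer cells of a type and less RNA per cell cannot be told apart.

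**Figure D1:**
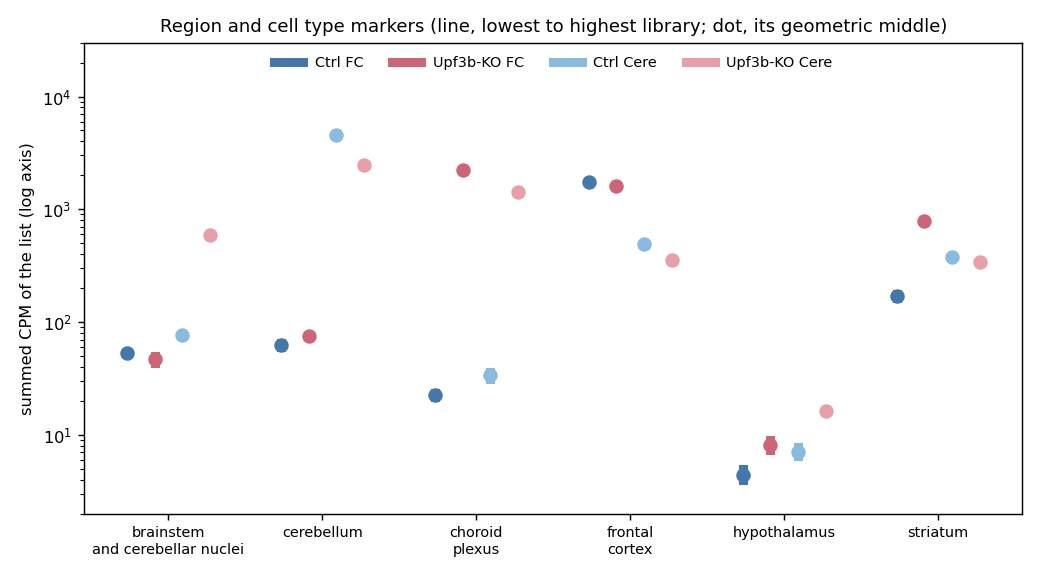
Summed CPM of 6 lists of region or cell type markers (log axis), by group; each line runs from the lowest to the highest library and the dot is its geometric middle. The choroid plexus list lies at 21.8 to 23.3 CPM in Ctrl FC and at 2224 to 2281 CPM in Upf3b-KO FC, and the list of brainstem and cerebellar nuclei is at 591 to 599 CPM in Upf3b-KO Cere and at no more than 78.6 CPM in the other groups.

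In frontal cortex, *Nnat* stood at 513, 526, 523 and 527 CPM in the Ctrl libraries and at 252, 255, 261 and 256 CPM in the Upf3b-KO libraries. The groups were far apart, at 522 ± 6.23 CPM (SD, n = 4) and 256 ± 3.63 (n = 4). The log2 ratio of the mean CPM was -1.03, and the log2 fold change fitted by edgeR after TMM scaling, which sets libraries on a common scale by their shared genes, was -1.10 (SE 0.015). This is the value that took part in choosing the set. On that contrast 9.16% of the 18218 genes tested were called higher and 1.06% were called lower, where a call needs an adjusted p under 0.01 and more than a 2-fold difference.

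*Impact*, whose protein restrains the kinase GCN2 that senses amino acid shortage, lies at chr18:13088909-13126012 (GRCm39, plus strand). In frontal cortex it was at 388, 378, 386 and 381 CPM in Ctrl and at 302, 291, 289 and 300 CPM in Upf3b-KO, and the groups did not overlap. The fitted log2 fold change was -0.45 (SE 0.017). *Ndn*, which encodes necdin, a MAGE family protein of postmitotic neurons (chr7:61995473-62000010, plus strand), went the other way. It was at 155, 146, 151 and 154 CPM in Ctrl FC and at 205, 204, 208 and 210 CPM in Upf3b-KO FC, with a fitted log2 fold change of 0.37 (SE 0.021).

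*Meg3* was at 256, 261, 261 and 256 CPM in Ctrl FC and at 220, 224, 223 and 225 CPM in Upf3b-KO FC, again with no overlap, and its fitted log2 fold change was -0.29 (SE 0.017). *Rian*, the next RNA of the cluster, was at 128 to 136 CPM in Ctrl FC and at 122 to 128 CPM in Upf3b-KO FC, and the groups overlapped, with a fitted log2 fold change of -0.13 (SE 0.025). *Mirg* was low, at 0.909 to 1.27 CPM and 0.989 to 1.34 CPM, from a mean of 36 counts per library in each group.

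*Snrpn* encodes SmN, a neuronal protein of spliceosomal small ribonucleoproteins (chr7:59630427-59820763, minus strand). It was at 1088, 1122, 1112 and 1135 CPM in Ctrl FC and at 1166, 1165, 1184 and 1172 CPM in Upf3b-KO FC. *Peg3*, a zinc finger protein gene (chr7:6706882-6733468, minus strand), was at 243, 248, 253 and 252 CPM and at 262, 259, 257 and 260 CPM. Both were slightly higher in Upf3b-KO on the CPM scale, but their fitted log2 fold changes after TMM were 0.00 (SE 0.012) and -0.01 (SE 0.017), so no direction is given for either.

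**Figure D2:**
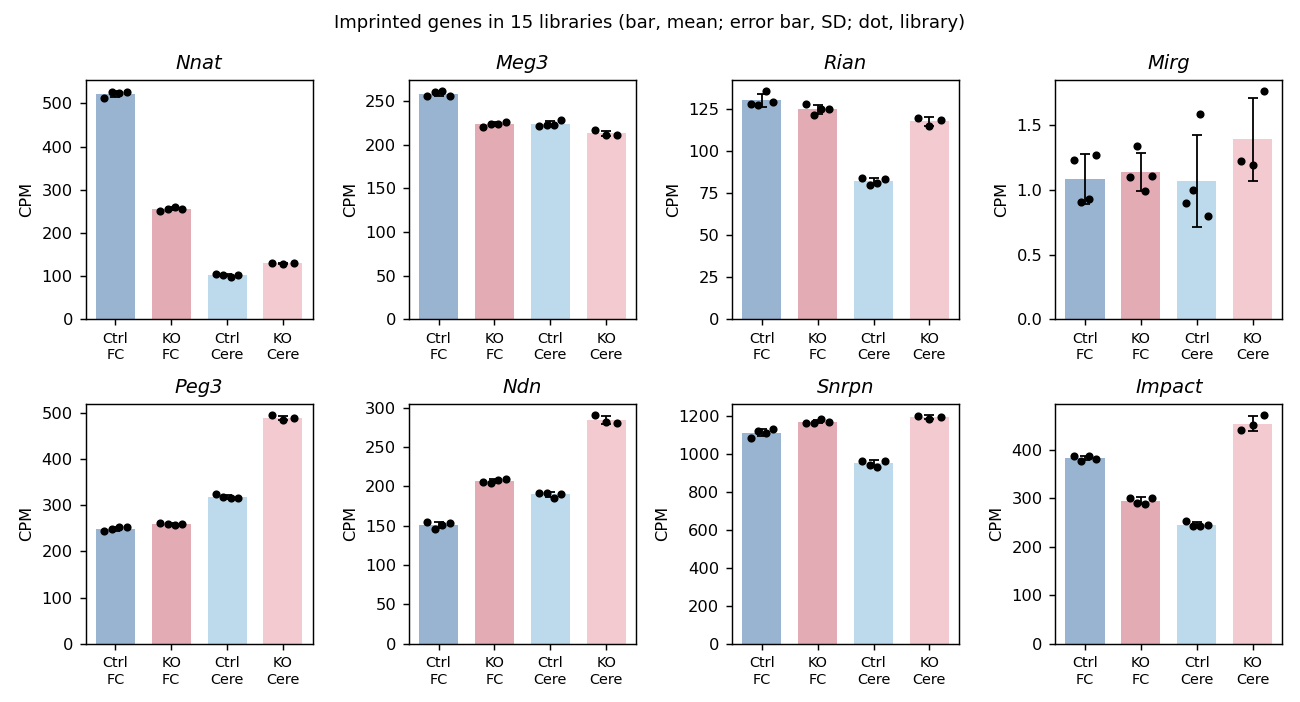
CPM of the 8 imprinted genes in the 15 deep libraries, by group; bars are means, error bars are SD and dots are libraries (KO, Upf3b-KO; n = 4, and n = 3 for Upf3b-KO Cere). *Nnat* lies at 513 to 527 CPM in Ctrl FC and 252 to 261 CPM in Upf3b-KO FC, and *Impact* lies at 242 to 253 CPM in Ctrl Cere and 440 to 471 CPM in Upf3b-KO Cere.

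The fall of *Nnat* named in the choice was that in frontal cortex, and the cerebellar libraries gave another genotype comparison. The set was drawn up with results of these libraries known, so this comparison may not be independent of the choice. *Impact*, *Peg3*, *Ndn*, *Rian*, *Nnat* and *Snrpn* were higher in Upf3b-KO, *Meg3* was lower, and *Mirg* did not pass the test. That is 6 of 8 passed higher and 1 of 8 passed lower at an adjusted p under 0.05 (edgeR, quasi-likelihood F test, adjusted by Benjamini-Hochberg over all genes). Over the 17785 genes tested, 33.1% passed higher and 31.3% passed lower. None of the 8 was called at the 2-fold limit, against 10.3% of all genes called higher and 2.86% called lower in the edgeR fit, and 7 of the 8 had an adjusted p under 0.05. The median log2 fold change was 0.40 over the 8 genes and 0.01 over all genes tested. In the same Upf3b-KO libraries the sums for choroid plexus and for brainstem and cerebellar nuclei were several-fold higher, as given above. The cerebellar marker sum was lower. The part of these shifts in the differences of the 8 genes was not tested.

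*Impact* showed the largest of these differences. It was at 253, 243, 242 and 244 CPM in Ctrl Cere and at 440, 451 and 471 CPM in Upf3b-KO Cere 2 to 4. The log2 fold change was 0.84 (SE 0.022, edgeR adjusted p = 9.56e-17), and the groups did not overlap. *Peg3* was at 324, 317, 315 and 315 CPM in Ctrl Cere and at 494, 485 and 488 CPM in Upf3b-KO Cere. Its log2 fold change was 0.57 (SE 0.016, edgeR adjusted p = 3.34e-16).

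*Ndn* rose from 192, 191, 185 and 190 CPM to 290, 282 and 280 CPM, a log2 fold change of 0.53 (SE 0.020, edgeR adjusted p = 2.07e-14). *Snrpn* rose from 965, 945, 933 and 966 CPM to 1204, 1183 and 1195 CPM, a log2 fold change of 0.28 (SE 0.014, edgeR adjusted p = 1.62e-12). These neighbours on chromosome 7 were both higher in each Upf3b-KO library than in any Ctrl library.

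*Nnat* was at 104.6, 103.5, 98.9 and 103.2 CPM in Ctrl Cere and at 131, 128 and 130 CPM in Upf3b-KO Cere. Its log2 fold change was 0.29 (SE 0.026, edgeR adjusted p = 8.58e-09), so the direction was opposite to that in frontal cortex. The difference between the regions was not tested. The shallow Upf3b-KO Cere library held 4 *Nnat* counts.

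The maternally expressed RNAs of chromosome 12 did not move together. *Rian* rose from 84.2, 79.9, 81.2 and 83.5 CPM in Ctrl Cere to 120, 115 and 119 CPM in Upf3b-KO Cere, a log2 fold change of 0.47 (SE 0.028, edgeR adjusted p = 2.98e-11). *Meg3* fell from 222, 222, 222 and 228 CPM to 216, 211 and 211 CPM, a log2 fold change of -0.12 (SE 0.020, edgeR adjusted p = 2.56e-05). Per transcript length, on the TPM scale explained below, this fall of *Meg3* was not seen (123 ± 2.97 and 124 ± 3.06). *Mirg* was at 0.795 to 1.58 CPM in the 4 Ctrl Cere libraries and at 1.22, 1.19 and 1.76 CPM in Upf3b-KO Cere, and the groups overlapped. Its log2 fold change was 0.33 (SE 0.28, edgeR adjusted p = 0.309), from means of 33.8 and 45.7 counts per library. Its coefficient of variation was 33.1% in Ctrl Cere and 23.1% in Upf3b-KO Cere, where counting error alone gives 17.2% and 14.8%.

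Apart from *Mirg*, the coefficient of variation of a gene within a group was between 0.739% and 3.45%, which was 0.689 to 4.20 times that from counting error alone. The ratio was highest for *Impact* in Upf3b-KO Cere (4.20) and for *Snrpn* in Ctrl FC (3.40), and lowest for *Nnat* in Upf3b-KO Cere.

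Between the regions of Ctrl mice, *Nnat* differed most. Its mean of 522 CPM in frontal cortex stood against 103 ± 2.5 CPM (SD, n = 4) in cerebellum, a log2 fold change of -2.40 (SE 0.019), given with no test because the Ctrl FC libraries took part in the choice. Of the other 7 genes, *Rian* (-0.72, SE 0.027, edgeR adjusted p = 1.52e-15) and *Impact* (-0.70, SE 0.018, adjusted p = 1.61e-18) were lower in cerebellum. *Snrpn* (-0.28, adjusted p = 3.00e-13) and *Meg3* (-0.26, adjusted p = 3.73e-11) were lower by less. *Peg3* (0.30, adjusted p = 5.28e-12) and *Ndn* (0.27, adjusted p = 7.33e-10) were higher in cerebellum, and *Mirg* was not called different (-0.08, SE 0.27, adjusted p = 0.806). These values are log2 fold changes of cerebellum against frontal cortex. Over the 17521 genes tested, 37.8% passed higher and 38.7% passed lower in cerebellum.

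Levels between genes were compared per length, as TPM, which divides each count by the annotated transcript length and scales every library to the same total. In Ctrl FC, *Nnat* ranked first at 924 ± 8.80 TPM (SD, n = 4), above *Snrpn* at 703 ± 11.5 TPM. They were followed by *Impact* (250 TPM), *Meg3* (154 TPM), *Rian* (120 TPM), *Ndn* (99.0 TPM), *Peg3* (69.1 TPM) and *Mirg* (1.78 TPM), and the ranges of neighbours did not overlap. In Upf3b-KO FC, *Snrpn* was first at 741 ± 4.53 TPM and *Nnat* followed at 455 ± 5.92 TPM, while *Ndn* (135 TPM) and *Meg3* (135 TPM) overlapped. In Ctrl Cere the order was *Snrpn* (629 TPM), *Nnat* (188 TPM), *Impact* (170 TPM), *Ndn* (130 TPM), *Meg3* (123 TPM), *Peg3* (97.6 TPM), *Rian* (80.8 TPM) and *Mirg* (1.49 TPM). In Upf3b-KO Cere, *Impact* at 299 TPM stood above *Nnat* at 229 TPM, and *Peg3* at 141 TPM above *Meg3* at 124 TPM. On this scale the *Meg3* means of the cerebellar groups, 123 ± 2.97 and 124 ± 3.06 TPM, lay within their spread, unlike its CPM.

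The members have 352 annotated transcripts, of which 119 were in the matrices and 28 reached a mean of 1 CPM in at least 1 group. RSEM divides reads between overlapping transcripts, so the value of a transcript depends on its isoforms. In cerebellum 11 of these 28 transcripts passed higher, 1 passed lower and 16 did not pass. Over the 44388 transcripts tested, 12.3% passed higher and 10.3% passed lower. The 28 were kept for a higher level than the filter of the test asked. Forms of the same gene also share reads, so these shares are not like for like.

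For *Nnat*, Nnat-202, with the exon printed above, was at 334, 352, 345 and 358 CPM in Ctrl FC and at 161, 146, 161 and 138 CPM in Upf3b-KO FC. Nnat-205, without it, was at 163, 157, 162 and 158 CPM and at 85.9, 106, 93.5 and 106 CPM. Both forms were lower in every Upf3b-KO FC library, with fitted log2 fold changes of -1.26 (SE 0.052) and -0.77 (SE 0.067). The share of Nnat-205 among *Nnat* counts was 30.7% ± 0.90 in Ctrl FC and 38.3% ± 3.85 in Upf3b-KO FC (SD, n = 4 each), and each Upf3b-KO library was above each Ctrl library.

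In cerebellum Nnat-202 was the main form, at 87.2% ± 1.51 of *Nnat* counts in Ctrl (n = 4) and 82.9% ± 0.776 in Upf3b-KO (n = 3). The shares did not overlap, and the exact permutation test, two-sided, gave p = 0.0571, which is the smallest p that 4 against 3 libraries allow. The level of Nnat-202 rose (log2 fold change 0.27, SE 0.028, edgeR adjusted p = 0.000551). Nnat-205 was at 10.3, 10.3, 8.64 and 11.9 CPM in Ctrl Cere and at 14.2, 19.6 and 19.8 CPM in Upf3b-KO Cere, and rose by 0.80 on the log2 scale (SE 0.16, edgeR adjusted p = 0.0103). It did not pass with the shallow Upf3b-KO Cere 1 included (edgeR adjusted p = 0.154). Its share, 10.01% ± 1.13 in Ctrl and 13.8% ± 2.54 in Upf3b-KO, overlapped between the groups (exact permutation test, two-sided, p = 0.114). The exon 2 forms Nnat-204, Nnat-208 and Nnat-210 had means below 2 CPM in both cerebellar groups and did not pass.

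**Figure D3:**
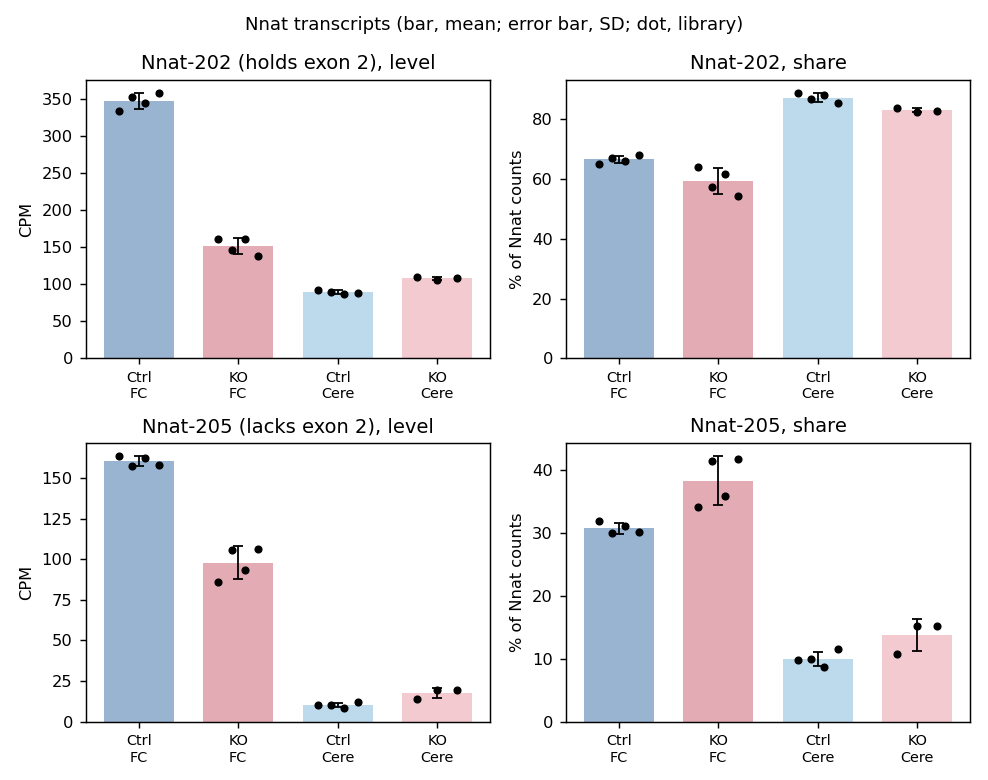
Level in CPM and share of *Nnat* counts in percent for Nnat-202, which holds exon 2, and Nnat-205, which lacks it, by group; bars are means, error bars are SD and dots are libraries (KO, Upf3b-KO; n = 4, and n = 3 for Upf3b-KO Cere). The share of Nnat-205 is 30.7% in Ctrl FC, 38.3% in Upf3b-KO FC, 10.01% in Ctrl Cere and 13.8% in Upf3b-KO Cere.

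The transcripts of *Meg3* went in opposite directions in cerebellum. Meg3-209, of 14548 nt, fell from 106, 103, 111 and 112 CPM to 81.5, 85.1 and 75.2 CPM (log2 fold change -0.42, SE 0.049, edgeR adjusted p = 0.000851). Meg3-201, of 3341 nt, rose from 14.1, 16.7, 16.05 and 15.4 CPM to 27.7, 25.7 and 25.9 CPM (log2 fold change 0.76, SE 0.075, edgeR adjusted p = 0.000393). In frontal cortex Meg3-209 was at 101 to 104 CPM in Ctrl and 82.1 to 84.5 CPM in Upf3b-KO, and Meg3-201 at 15.3 to 16.9 CPM and 20.7 to 26.6 CPM, given as a description. Meg3-205 had the lowest fitted value of the *Meg3* transcripts there, with means of 79.5 CPM in Ctrl FC and 58.3 CPM in Upf3b-KO FC (log2 fold change -0.51, SE 0.030), and at 52.4 and 50.3 CPM in cerebellum it did not pass (edgeR adjusted p = 0.208). Meg3-206, at 39.1 and 44.8 CPM in cerebellum, did not pass (edgeR adjusted p = 0.0688), but it passed by DESeq2 (adjusted p = 0.0173), with the 15 deep libraries in 1 fit (edgeR adjusted p = 0.0261) and without Upf3b-KO Cere 3 (0.0240). Meg3-202 and Meg3-207, at 1.66 and 2.59 CPM and at 6.13 and 7.82 CPM, did not pass.

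Among *Rian* transcripts in cerebellum, Rian-202 (37.2 CPM in Ctrl and 52.6 CPM in Upf3b-KO, edgeR adjusted p = 3.24e-05), Rian-235 (3.71 and 5.97 CPM, adjusted p = 0.0164) and Rian-242 (4.65 and 14.6 CPM, adjusted p = 0.0143) rose. Rian-246, at 21.1 and 28.9 CPM, did not pass (edgeR adjusted p = 0.0566). It passed by DESeq2 (adjusted p = 0.00732), under a stricter filter on low counts (edgeR adjusted p = 0.0452) and with the 15 deep libraries in 1 fit (0.0200). Rian-201, Rian-209, Rian-231, Rian-233 and Rian-268, with group means of at most 7.79 CPM, did not pass.

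For *Impact*, *Peg3*, *Ndn* and *Snrpn*, 1 transcript held at least 94.49% of the counts in every deep library. In cerebellum the edgeR adjusted p was 2.02e-06 for Impact-201, 2.66e-07 for Peg3-201, 2.00e-06 for Ndn-201 and 9.45e-06 for Snrpn-201, all higher in Upf3b-KO. Snrpn-202, a minor form, was at 5.16, 1.03, 4.05 and 3.64 CPM in Ctrl Cere and at 12.3, 13.9 and 19.7 CPM in Upf3b-KO Cere, and rose by 2.14 on the log2 scale (SE 0.49, edgeR adjusted p = 0.0192). *Snrpn* shares 216 exonic nt with *Snurf* and 1250 nt, 30.5% of its exonic length, with *Gm38393* on the same strand, which was at 24.5 to 31.0 CPM, so the division of reads between them is uncertain. Of the minor *Peg3* forms, Peg3-204 (6.47 and 5.05 CPM) did not pass in cerebellum (edgeR adjusted p = 0.109), but it passed by DESeq2 (adjusted p = 0.0189). Peg3-205 had 22.1, 21.2, 0 and 0 counts in Ctrl Cere and 86.9, 82.3 and 121 counts in Upf3b-KO Cere. It entered the fit through the Upf3b-KO libraries, where it was high, so its values are given with no test.

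Some of these transcript calls depended on 1 library. With the shallow Upf3b-KO Cere 1 included, Nnat-202, Nnat-205, Peg3-201, Snrpn-201, Rian-202 and Rian-235 no longer passed (edgeR adjusted p = 0.0721 to 0.594). Rian-235 also did not pass without Upf3b-KO Cere 2 or 3 (edgeR adjusted p = 0.0544 and 0.0686), without a filter on low counts (0.0690) or with the 15 deep libraries in 1 fit (0.238). Rian-242 did not pass without Upf3b-KO Cere 3 or 4 (edgeR adjusted p = 0.0518 and 0.0520), nor did Snrpn-202 (0.0512 and 0.0709). The calls of Impact-201, Ndn-201, Meg3-201 and Meg3-209 held under every alternative that was run.

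A stop codon at least 50 nt before the last exon junction marks a candidate target of NMD. Of the members' measured transcripts 3 carried it, Peg3-202, Peg3-203 and Impact-203. Peg3-202 and Impact-203 had means of at most 0.125 CPM in every group. Peg3-203 was at 11.2, 10.1, 6.26 and 6.29 CPM in Ctrl Cere and at 10.3, 7.21 and 11.5 CPM in Upf3b-KO Cere, with overlapping groups (log2 fold change 0.19, SE 0.28, edgeR adjusted p = 0.718). In frontal cortex it was at 0 in the 4 Ctrl libraries and at 0, 0, 2.66 and 0.328 CPM in Upf3b-KO, too few counts for the fit. Nnat-202 and Nnat-205 did not carry the feature.

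Other imprinted genes were read from a list of 36, which was made from general knowledge of mouse imprinting, with earlier results of these data known. In cerebellum 32 of them could be tested, and 18 passed higher, 9 passed lower and 5 did not pass, where 33.1% of all genes passed higher and 31.3% passed lower. Of the 32, 8 were called higher and, by edgeR as by DESeq2, 0 lower, against 10.3% and 2.86% of all genes. The median log2 fold change of these genes was 0.40, and 0.01 over all genes. In frontal cortex 30 could be tested, with 5 passed higher, 15 passed lower and 10 not passed, where 28.0% of all genes passed higher and 25.3% passed lower. The median there was -0.16, and 0.00 over all genes, with 2 called higher and 1 lower, where 9.16% and 1.06% of all genes were called. In frontal cortex the choroid plexus and striatal sums were higher in the same Upf3b-KO libraries, as given above. In cerebellum the sums for choroid plexus and for brainstem and cerebellar nuclei were higher and the cerebellar sum lower. The part of these marker shifts in these counts was not tested.

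Of those called higher in cerebellum, *Dlk1*, *Calcr* and *Magel2* had fewer than 10 counts in every Ctrl Cere library and so entered the test only through the Upf3b-KO libraries, where they were high. Their values are given with no test. *Dlk1*, the paternally expressed Notch-like ligand gene of the *Meg3* cluster, had 4, 0, 1 and 8 counts in Ctrl Cere and was at 22.8, 22.0 and 22.4 CPM in Upf3b-KO Cere. *Calcr*, the calcitonin receptor gene, had 7, 7, 1 and 1 counts and was at 2.55, 2.84 and 2.29 CPM. *Magel2*, a neighbour of *Ndn*, had 5, 6, 8 and 6 counts and was at 2.27, 2.72 and 2.70 CPM. *Zdbf2*, *Zim1*, *Kcnk9*, *Mest* and *Cdkn1c* were the others, with log2 fold changes of 1.75, 1.63, 1.19, 1.16 and 1.11. Without the 3 genes that were low in Ctrl Cere, 5 of 29 were called higher, 15 passed higher and 9 lower, against the same shares of all genes, and the median was 0.29.

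In frontal cortex *Igf2*, the growth factor gene, rose from 6.52 to 15.2 CPM (log2 fold change 1.14, edgeR adjusted p = 3.94e-10). *Cdkn1c*, which encodes the cell cycle inhibitor p57, rose from 8.69 to 19.3 CPM (1.08, edgeR adjusted p = 2.10e-11). *Dio3*, the thyroid hormone deiodinase gene at the far end of the *Meg3* cluster, fell from 3.53 to 0.875 CPM (-2.08, edgeR adjusted p = 1.83e-08). *Dio3* was at 0.0829 and 0.0938 CPM in the cerebellar groups and was not tested there. *Igf2* passed in cerebellum as well, without a call (0.40, edgeR adjusted p = 0.00681).

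The most abundant of the listed genes differed by less. *Gnas*, the gene of the stimulatory G protein subunit, was at 1269 and 995 CPM in Ctrl FC and Upf3b-KO FC (log2 fold change -0.43, edgeR adjusted p = 5.36e-18), and at 1080 and 1524 CPM in Ctrl Cere and Upf3b-KO Cere (0.45, edgeR adjusted p = 5.00e-17). *Nap1l5* (-0.42 and 0.53) and *Rasgrf1* (-0.44 and 0.29) also passed lower in frontal cortex and higher in cerebellum. *Ube3a*, the ubiquitin ligase gene next to *Snrpn*, passed lower in both (-0.15 and -0.16). *Peg13* did not pass in frontal cortex (0.01, edgeR adjusted p = 0.510) and passed lower in cerebellum (-0.13, edgeR adjusted p = 7.43e-07).

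**Figure D4:**
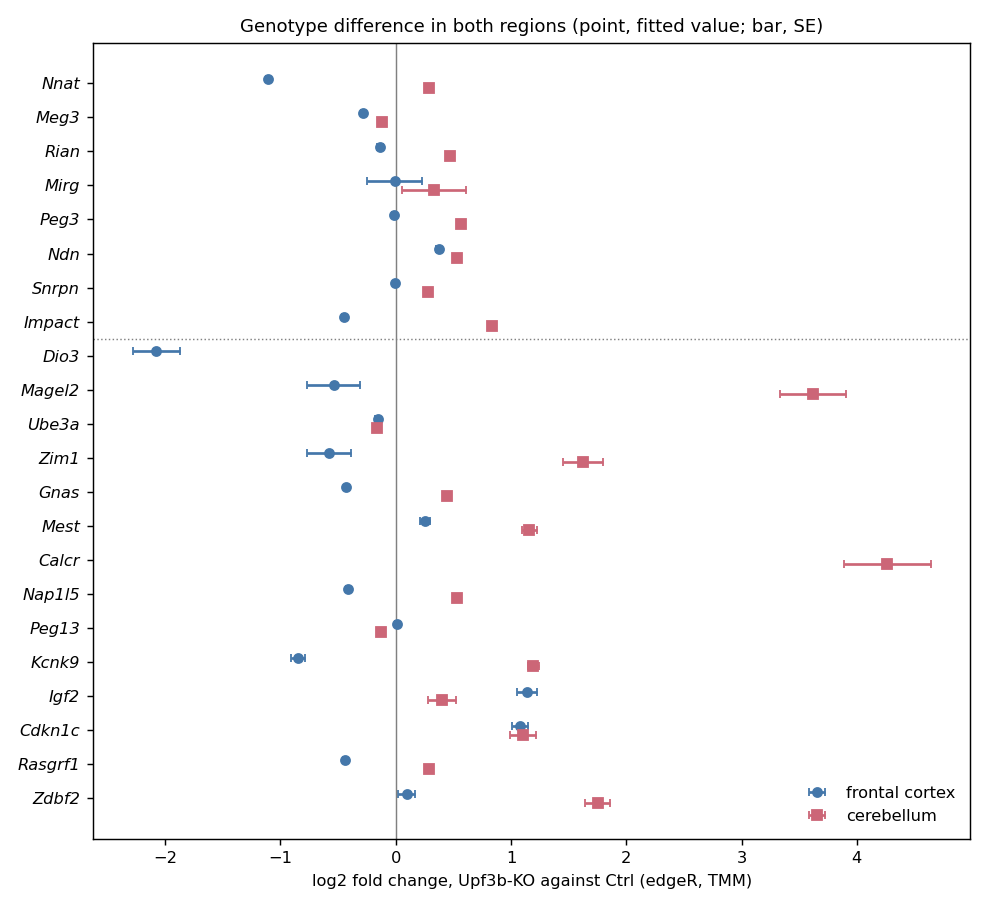
Fitted log2 fold change of Upf3b-KO against Ctrl in frontal cortex (circles) and cerebellum (squares), with SE, for the 8 genes above the dotted line and other named imprinted genes under it; *Dlk1* is left out to keep the scale, and the cerebellar values of *Calcr* and *Magel2* rest on fewer than 10 counts in each Ctrl library. *Nnat* is at -1.10 in frontal cortex and 0.29 in cerebellum, and *Impact* is at -0.45 and 0.84.

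The genes most like *Nnat* over the 15 deep libraries, by Pearson's r of log2(CPM + 0.5) over 10330 genes that averaged 10 CPM or more, were *Syp* (r = 0.998), *Epas1* (0.995), *Apba1* (0.995), *Gnb1* (0.993) and *C4b* (0.992). Their levels spanned less than those of *Nnat*. *Syp*, the synaptophysin gene, was at 1185, 1033, 859 and 900 CPM in Ctrl FC, Upf3b-KO FC, Ctrl Cere and Upf3b-KO Cere. *C4b*, a complement gene, was at 52.7, 29.1, 14.2 and 14.5 CPM. The 15 libraries share the regional difference and are not independent points. Among the members, r with *Nnat* was 0.84 for *Meg3*, 0.79 for *Rian*, 0.45 for *Snrpn*, 0.38 for *Impact*, -0.64 for *Ndn* and -0.69 for *Peg3*, and Spearman's rho was 0.61, 0.91, 0.31, 0.45, -0.36 and -0.78 in the same order.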

How the data were processed

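The authors depleted ribosomal RNA, made SMART-Seq libraries, sequenced read pairs, aligned them with STAR 2.5.2b and estimated transcript levels with RSEM (GRCm39). They deposited unscaled expected counts of Ensembl transcripts, in 1 matrix per tissue, and strand use was not stated. Of 142435 transcripts, 141102 matched GENCODE vM39 by identifier and were summed per gene. RefSeq sequences are of GRCm38.p6.

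Counts were rounded, filtered (filterByExpr, minimum count 10, minimum total 15) and tested with edgeR 4.0.16 (R 4.3.3), with trimmed-mean (TMM) scaling, the quasi-likelihood F test and Benjamini-Hochberg adjustment over all features, for each tissue and for the Ctrl regions. SE is the log2 fold change over the square root of F. DESeq2 1.42.0, other scalings, filters, sample sets and left-out replicates were alternatives. On simulated cerebellar gene counts, 198 of 200 changed genes were recovered, and 91 of 200 for transcripts. Sums and figures used Python 3.11.15.

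Members and lists were chosen with earlier results of these data known. The text names all members, their transcripts at 1 CPM or more in a group, other imprinted genes called in either tissue or among the 5 most abundant, and the 5 genes most like *Nnat*. In the deep libraries 3 counts are 0.0851 to 0.108 CPM. Floors cover counting error only.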

Additional observations from a re-analysis of the deposited data

Results flagged for a closer look

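For the members and the other imprinted genes named in the text, differences of the genotype effect between the regions are given as cerebellum minus frontal cortex, in log2 ratios of mean CPM, where every Upf3b-KO library moved one way in one region and the opposite way in the other. None of these differences was tested. They were 1.37 for *Nnat* and 1.26 for *Impact*. Among the named other imprinted genes they were 8.56 for *Dlk1*, 2.18 for *Zim1*, 2.02 for *Kcnk9*, 0.92 for *Nap1l5*, 0.85 for *Gnas*, 0.70 for *Rasgrf1* and -0.17 for *Peg13*, of which *Peg13* did not pass in frontal cortex and *Dlk1* rests on few counts in Ctrl Cere. *Meg3* in 1 Ctrl Cere library, at 228 CPM, lay apart from the other 3 at 222 CPM, with a gap of 0.88 of the range, above Dixon's critical value for 4 samples. Of 69 groups of 4 libraries examined over the named genes this was the only one that stood out, and chance marks about 1 in 20.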

How the results depend on the processing

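None of the 238 alternative tests of the 8 genes crossed the threshold, and the other 143 of 381 alternative values had no test. Values near 0 changed sign, for *Snrpn* in frontal cortex (-0.01 to 0.01) and for *Mirg* in frontal cortex (-0.10 to 0.07) and between the Ctrl regions (-0.32 to 0.04), and *Nnat* between the Ctrl regions moved to -2.38 with all 15 deep libraries in 1 fit. Counts of calls were less stable. In cerebellum 2339 genes were called, against 9820 with no fold limit and 1500 under the stricter filter, and 2113 transcripts, against 6214 with no fold limit, 4188 by DESeq2, 977 with the shallow library, and 1354 to 1767 on leaving out 1 replicate, with 1387, 1365 and 1354 without Upf3b-KO Cere 2, 3 and 4. In frontal cortex 1861 genes were called, against 7950 with no fold limit and 1047 under the stricter filter, and 1362 transcripts, against 3944 with no fold limit, 2755 by DESeq2 and 927 to 1120 on leaving out 1 replicate. Other imprinted genes called lower in frontal cortex numbered 1, and 1 to 2 on leaving out 1 replicate, with 2 without Ctrl FC 3, Upf3b-KO FC 1 or Upf3b-KO FC 4. By Spearman's rho, 0 of the 5 genes most like *Nnat* remained. The cause of these shifts was not tested. Same-numbered libraries did not deviate together (correlations -0.0575 to 0.0755), so the numbers were not taken as pairs, and with the replicate block 553 transcripts were called in cerebellum and 460 in frontal cortex. Of 411 alternative tests of member transcripts, 386 kept their side of the threshold, 16 lost significance and 9 gained it, and 388 further values had no test. These counts include Peg3-205, among them its gain by DESeq2, although its values are given above with no test. Under the replicate block Nnat-205 (edgeR adjusted p = 0.0808) and Rian-235 (0.149) no longer passed and Rian-246 (0.0350) did. Counts behind *Mirg* and the minor transcripts were low.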
